A study of Mus musculus with 2 samples.

Results

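The Snrpn-Ube3a cluster on mouse chromosome 7 corresponds to the human region whose loss causes Prader-Willi or Angelman syndrome, depending on the parent it came from. It was described here by 8 genes, taken by symbol from the deposited tables: Snrpn, Snurf, Snhg14, Ube3a, Ndn, Magel2, Mkrn3 and Peg12. These are 8 of 55536 annotated genes and hold 40 of 141862 annotated transcripts. All 8 had counts in both libraries in the gene table. The samples were hippocampus, labelled as a layer of it, from male B6CASTF1/J mice aged 25 days, an F1 hybrid strain supplied by The Jackson Laboratory. Total RNA was sequenced from 300 ng of input, to which synthetic ERCC spike-in RNAs had been added, in each of 2 libraries numbered as biological replicates 1 and 2. The labels name no treatment and no genotype other than the strain, so there was 1 group and no condition to compare.

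In brain, the paternal chromosome is known to express Snrpn, Snurf, the long non-coding RNA Snhg14 and the genes Ndn, Magel2, Mkrn3 and Peg12, while their maternal copies carry silencing marks set at an imprinting centre near the start of Snrpn. Ube3a, a ubiquitin ligase, shows the reverse in neurons, where its paternal copy is silenced by Snhg14, which is transcribed across it from the opposite strand. In glia Ube3a is known to be read from both copies. The deposited tables do not separate parental copies, so what follows are total levels of each gene over both.

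Annotated genes drew 35713471 expected counts in the library of replicate 2 and 30635891 in that of replicate 1. An expected count is RSEM's estimate of the reads of a gene after reads that match several features are shared out. In the labels the 2 tissue samples have identifiers of their own and a donor identifier in common, which leaves unsettled whether 2 animals were used. The spread of the replicates may thus be partly or wholly technical. Among genes averaging 100 or more expected counts (12719 genes), counts differed between the libraries by more than counting error, with a mean chi-square per gene of 16.0 and a median of 2.41. They were therefore not treated as copies of 1 library, and the value says nothing on the number of animals. All 6 markers of hippocampal fields and all 5 neuronal markers stood at 10 TPM or more. In the RSEM table, none of 5 hypothalamic markers (Agrp, Pmch, Hcrt, Avp and Oxt) reached 1 TPM, and of 3 choroid plexus markers only Kl did. In the kallisto table, Oxt (mean 1.53 TPM) and the choroid plexus marker Folr1 (mean 1.41 TPM) also passed 1 TPM. Astrocyte, oligodendrocyte, microglial and endothelial markers were all above 1 TPM, so values are sums over several cell types. In such bulk tissue, fewer cells of a type and less RNA per cell cannot be told apart. TPM, transcripts-per-million, divides counts by the length available to reads and scales all rows of a library to a common total.

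The genes lie in 2 blocks on chromosome 7 of mm10. In the first, Ube3a (ENSMUSG00000025326.12, plus strand, chr7:59228750-59311536) and Snhg14 (ENSMUSG00000100826.6, minus strand, chr7:59307924-59975759) run towards each other and overlap at their ends. Snrpn (ENSMUSG00000102252.5, minus strand, chr7:59982495-60140219) and Snurf (ENSMUSG00000102627.1, minus strand, chr7:59995449-60005049) follow. The second block holds Ndn (ENSMUSG00000033585.5, plus strand, chr7:62346569-62350262), Magel2 (ENSMUSG00000056972.6, plus strand, chr7:62377010-62381640), Mkrn3 (ENSMUSG00000070527.3, minus strand, chr7:62417593-62420139) and Peg12 (ENSMUSG00000070526.2, minus strand, chr7:62461871-62464510). The last 4 are single-exon genes with 1 annotated transcript each.

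Snrpn and Snurf share 1 messenger RNA, in which Snurf is the upstream reading frame and Snrpn, the Sm protein SmN of the spliceosome, the downstream one. The annotation models Snurf by its reading frame alone, from start to stop codon. That model, Snurf-201, is only 216 bases long and encodes 71 amino acids. It is shown because every base of it also lies in another annotated transcript. Capitals mark its first 10 bases, which are not part of the run of sequence shared with the transcript Snrpn-202. The remaining 206 bases are found in Snrpn-202 as 1 run. By genomic position, 202 of the 216 bases lie in exons of Snrpn-202 and 14 do not.
Snurf-201: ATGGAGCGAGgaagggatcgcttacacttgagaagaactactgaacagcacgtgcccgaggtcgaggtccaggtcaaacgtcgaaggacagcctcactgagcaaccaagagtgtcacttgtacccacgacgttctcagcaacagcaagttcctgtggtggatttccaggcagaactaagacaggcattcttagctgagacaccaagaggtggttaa
All 216 bases are present in Snrpn-201, beginning at its base 63, and in Gm38393-201, a transcript of a readthrough model that spans Snurf and ends beyond Snrpn.

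The transcripts Snrpn-201 and Snrpn-202 differ mainly in where they begin. Snrpn-201 (1932 bases, 10 exons) begins at position 60005111 and Snrpn-202 (2076 bases, 11 exons) at position 60140219, which is far upstream. They share 1849 exonic bases. Only 83 bases are particular to Snrpn-201 and 227 to Snrpn-202, and both encode 240 amino acids. RefSeq start windows (GRCm38.p6, 250 bases before to 50 after the start, minus strand) exist for both starts. They lie at chr7:60005150-60005449, 88 bases from the start of Snrpn-201, and at chr7:60140176-60140475, 6 bases from that of Snrpn-202. Both are shown because the tables disagree on which start was used, and capitals mark the 8-base palindrome CGCATGCG, the core of the site known for the transcription factor NRF1.
Snrpn start near Snrpn-201: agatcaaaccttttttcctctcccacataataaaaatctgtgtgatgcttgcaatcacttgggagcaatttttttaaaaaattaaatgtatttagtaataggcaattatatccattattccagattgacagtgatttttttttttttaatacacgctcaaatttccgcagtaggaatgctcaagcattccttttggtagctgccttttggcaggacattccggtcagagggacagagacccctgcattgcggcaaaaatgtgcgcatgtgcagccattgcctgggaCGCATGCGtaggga
Snrpn start near Snrpn-202: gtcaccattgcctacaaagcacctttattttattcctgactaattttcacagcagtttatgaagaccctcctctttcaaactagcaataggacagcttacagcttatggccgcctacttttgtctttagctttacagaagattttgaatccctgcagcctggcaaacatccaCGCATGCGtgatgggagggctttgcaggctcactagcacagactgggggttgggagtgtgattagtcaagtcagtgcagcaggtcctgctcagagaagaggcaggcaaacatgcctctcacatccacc
RefSeq gives Snrpn 2 further upstream starts. The 3 upstream windows were alike, with 85.0% to 88.7% of aligned bases identical between pairs and shared runs of 49 to 62 bases. Between each upstream window and the window near Snrpn-201, only 178 to 191 of 300 bases aligned, with end gaps free. Of these, 71.9% to 77.5% were identical, with no shared run above 10 bases. Identity between unrelated windows was not measured. The most upstream window is also the RefSeq start of Snhg14, at position 60450177, which is 474418 bases before the start that GENCODE gives that gene.

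The palindrome CGCATGCG was found in 5 of the 9 distinct start windows of the 8 genes, against 1.86% of all 32817 windows of the same length in the table. It reads the same on both strands and was the only motif searched. It lay in all 4 Snrpn windows, including those shared with Snurf and Snhg14, and in the window of Ndn. It was not present in the windows of Ube3a, Magel2, Mkrn3 and Peg12. The 3 similar upstream windows are not independent occurrences. A match describes the letters only. The GENCODE model of Ndn begins 1708 bases before the RefSeq start, so that its window lies inside the model.

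Levels of the 8 genes spanned more than 3 orders of magnitude. By mean TPM, 6 of 8 reached at least 1 TPM, where 27.4% of all annotated genes did, and 5 of 8 did in kallisto. The annotated genes include many non-coding ones. Among protein-coding genes alone, Mkrn3, with a mean of 1.125 TPM, ranked 12814, so many coding genes pass that level. Snurf had 1061 TPM in replicate 2 and 1012 TPM in replicate 1 (mean 1036 ± 35.2, SD, n = 2). Snhg14, the host of the cluster's small nucleolar RNAs, had 570 TPM in replicate 2 and 768 TPM in replicate 1 (669 ± 140). Snrpn had 392 TPM in replicate 2 and 363 TPM in replicate 1 (377 ± 20.4). These 3 genes stood well above the rest in both libraries, and Snurf and Snrpn ranked 22 and 103 among protein-coding genes by mean TPM.

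Ube3a had 59.2 TPM in replicate 2 and 58.0 TPM in replicate 1 (58.6 ± 0.834). Ndn, which encodes the growth-restraining MAGE protein necdin, had 60.5 TPM in replicate 2 and 51.2 TPM in replicate 1 (55.9 ± 6.58). The ranges of Ube3a and Ndn overlapped, so their order is not settled. Each was above the median of 12.5 TPM over the 15231 genes at 1 TPM or more, at the percentiles 88.0 and 87.3 of those genes.

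The other 3 genes were low. Mkrn3, a zinc-finger ubiquitin ligase known as a brake on puberty, had 1.15 TPM in replicate 2 and 1.10 TPM in replicate 1. Magel2, a MAGE protein that regulates a ubiquitin ligase on endosomes, had 0.70 TPM in replicate 2 and 0.61 TPM in replicate 1. Peg12, an intronless relative of the FRAT genes of WNT signalling, had 0.31 TPM in replicate 2 and 0.34 TPM in replicate 1. Their order, Mkrn3 above Magel2 above Peg12, was the same in both libraries, without overlap of the ranges. It rests on few reads. Peg12 had 19 counts in replicate 2 and 18 in replicate 1, with exact 95% Poisson intervals of 11.4 to 29.7 and 10.7 to 28.4. Magel2 had 78 counts (61.7 to 97.3) in replicate 2 and 58 (44.0 to 75.0) in replicate 1, and Mkrn3 69 counts (53.7 to 87.3) and 56 (42.3 to 72.7). Such intervals cover counting error only. In replicate 1, Magel2 and Mkrn3 had nearly the same count, and their TPM differ there mainly by length.

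**Figure D1:**
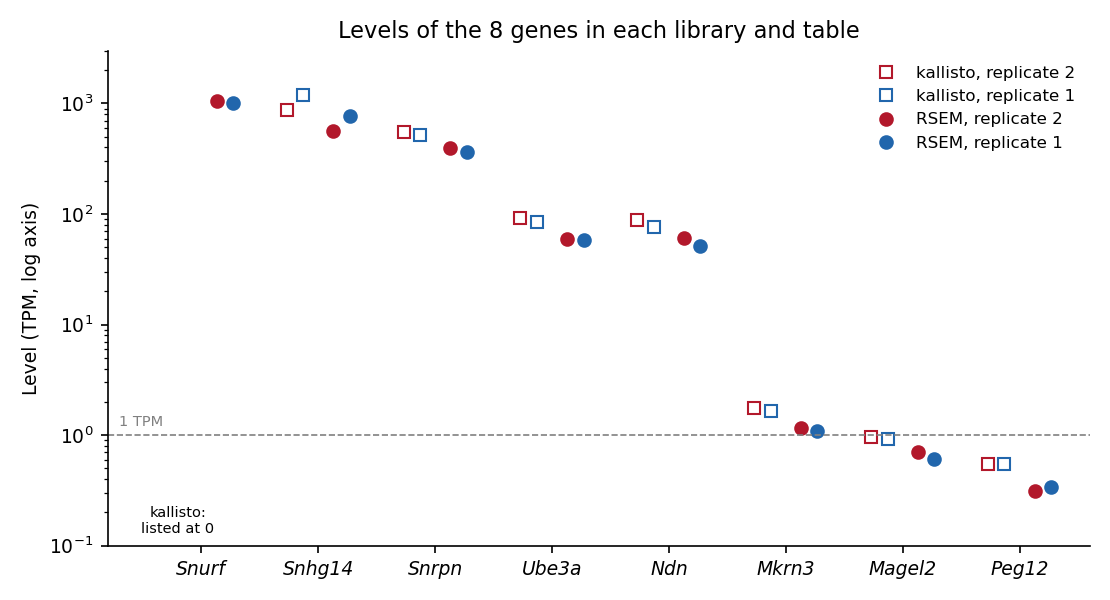
Level of each gene (TPM, log axis) in each library, with open squares for the kallisto table, filled circles for the RSEM table, red for replicate 2 and blue for replicate 1. Snurf, Snhg14 and Snrpn lie above 300 TPM in the RSEM table, Ube3a and Ndn between 51.2 and 60.5 TPM, and Mkrn3, Magel2 and Peg12 near or below 1 TPM, while kallisto lists Snurf at 0.

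The order among the abundant genes depended on which length the counts were divided by. TPM uses the mean length of the transcripts to which RSEM gave the reads, 1123 bases for Snhg14 in replicate 2 and 1127 in replicate 1. The exons of the Snhg14 model cover 26093 bases when summed. On counts-per-million per kilobase of summed exons, Snhg14 stood at 15.3 in replicate 2 and 20.6 in replicate 1, against 40.4 and 33.9 for Ndn. On that scale Ndn was above Snhg14 in both libraries, the reverse of the order by TPM. Ube3a, with 20626 summed exon bases, stood at 9.31 in replicate 2 and 9.24 in replicate 1, now below Ndn without overlap. Snurf (383 ± 15.1) and Snrpn (219 ± 13.2) remained the highest, and Mkrn3, Magel2 and Peg12 kept their order at the low end.

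**Figure D2:**
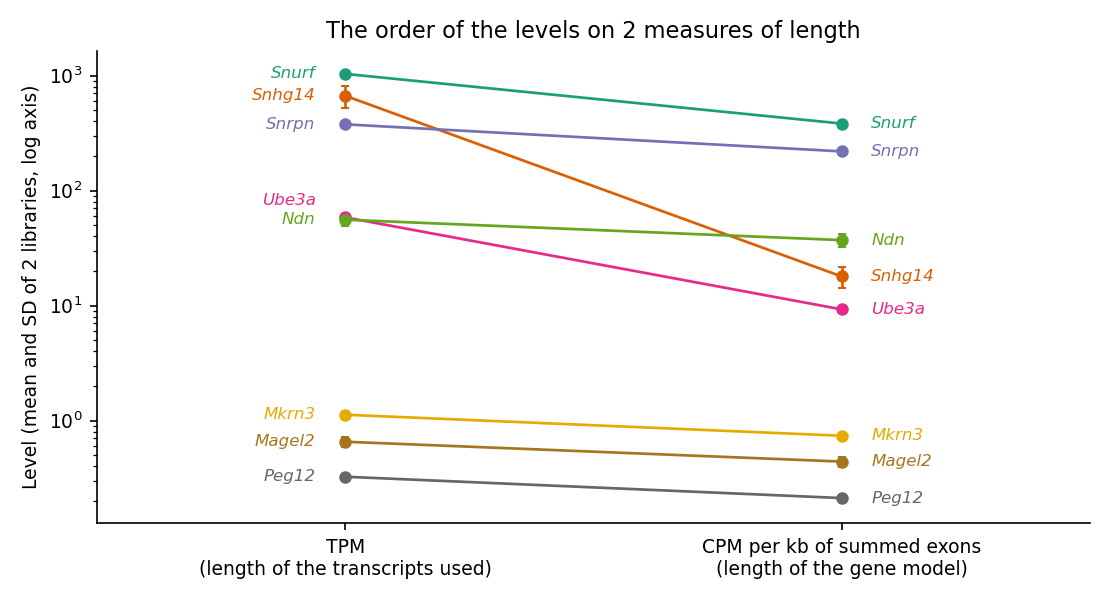
Mean level of each gene with its SD over 2 libraries (log axis), on the left in TPM and on the right in counts-per-million per kilobase of summed exons. Snhg14 lies between Snurf and Snrpn on the left and below Ndn on the right, and Ube3a lies beside Ndn on the left and below Snhg14 on the right.

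Snurf against Snrpn shows the effect of the short model. By TPM, Snurf over Snrpn was 2.71 in replicate 2 and 2.79 in replicate 1. By expected counts it was 0.172 in replicate 2 and 0.177 in replicate 1. The 2 libraries gave nearly equal values on each scale, and the scales gave opposite orders. RSEM divides by an effective length, 99 bases below the full length, which is 117 for the 216 bases of Snurf. With the full lengths in place of effective ones, the ratio was 1.55 in replicate 2 and 1.59 in replicate 1. RSEM gave the Snurf count a posterior SD of 1.00% of the count in replicate 2 and 1.10% in replicate 1, RSEM's own estimate of uncertainty in the sharing.

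The tables shared out the reads of the locus differently. In kallisto, Snurf had 0 counts in both libraries, against 3038 expected counts in replicate 2 and 2465 in replicate 1 in RSEM. Kallisto listed the Snurf model with an effective length of 47.3 bases in replicate 2 and 49.6 in replicate 1, against 117 in RSEM. For long transcripts, kallisto's effective length lay 343 bases (replicate 2) and 349 bases (replicate 1) below the full one. The part of these lengths in the 0 counts was not tested. Among the 5 members that averaged 100 or more expected counts, Snurf was the only one whose kallisto count was over 2-fold below its RSEM count in both libraries, and 1.97% of all 12719 genes were. None of the 5 was over 2-fold higher in kallisto, where 0.362% of all genes were. Kallisto gave Snrpn 18285 counts in replicate 2 and 14323 in replicate 1, against 17642 and 13901 in RSEM, which is 1.04 and 1.03 times as many. The median of that quotient over all genes was 1.06 in replicate 2 and 1.07 in replicate 1, so the counts of Snurf in RSEM were not found as an excess of Snrpn in kallisto.

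The start of Snrpn was assigned in opposite ways. In kallisto, Snrpn-202 with the upstream start took 18285 counts in replicate 2 and 14316 in replicate 1, while Snrpn-201 had 0 and 7.11. In RSEM, Snrpn-202 had 1004 counts in replicate 2 and 617 in replicate 1, against 16638 and 13284 for Snrpn-201. Snrpn-201 thus took 94.7% and 95.9% of the gene's TPM in RSEM and 0% and 0.0541% in kallisto. Neither table settles which start was used, since 1849 of the exonic bases are common to both models. The cause of the disagreement was not tested.

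Gm38393, the readthrough gene whose transcript Gm38393-201 (1199 bases) holds the Snurf bases, had 2287 kallisto counts in replicate 2 and 2391 in replicate 1. In RSEM it had 1894 and 1985. Its transcript Gm38393-203 (3937 bases) shares no exonic base with Snrpn-201. The mean transcript length of Gm38393 in RSEM was 3348 bases in replicate 1, so its counts do not measure reads over the Snurf bases. It took 8.39% of the RSEM counts of the 3 genes in replicate 2 and 10.8% in replicate 1, while Snurf took 13.5% and 13.4% and Snrpn 78.2% and 75.8%. The summed counts of the locus, which do not depend on the sharing among these models, came to 571 counts-per-million (replicate 2) and 537 (replicate 1) in kallisto, against 632 and 599 in RSEM.

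**Figure D3:**
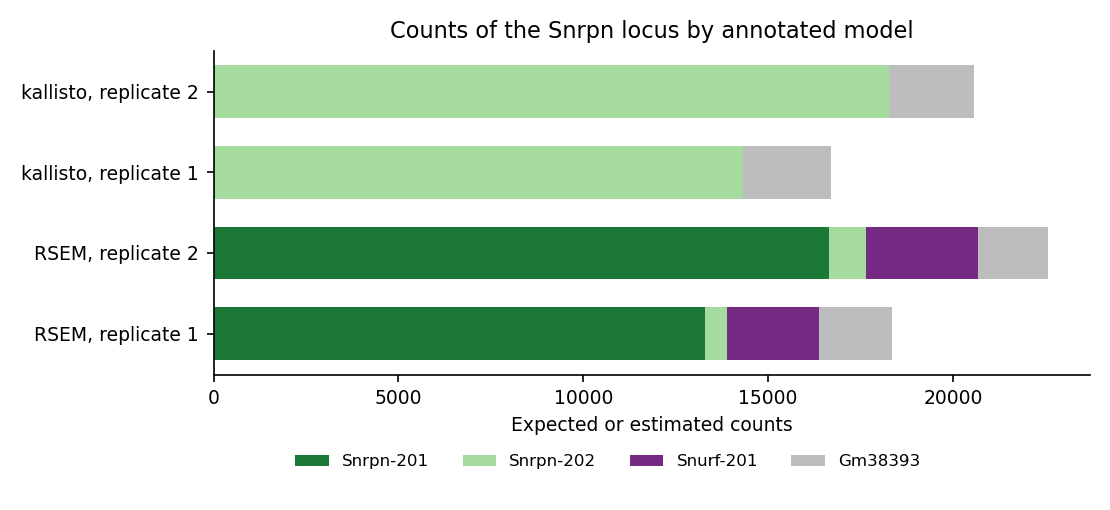
Counts given to each annotated model of the Snrpn locus in each table and library, with kallisto bars above RSEM bars and replicate 2 above replicate 1. The kallisto bars consist almost wholly of Snrpn-202 and Gm38393, while the RSEM bars consist mostly of Snrpn-201 with a Snurf part of 13.4% to 13.5%.

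Snhg14 is annotated with 15 transcripts, most of them short pieces along a span of 668 kb. By RSEM TPM, Snhg14-203 led with 53.2% of the gene in replicate 2 and 49.1% in replicate 1. It is 670 bases long and took only 29.6% and 27.3% of the gene's counts. Snhg14-208 held 14.1% of TPM in replicate 2 and 17.2% in replicate 1, and Snhg14-210 held 7.78% and 10.03%. Snhg14-207 held 7.68% and 6.81%, and Snhg14-206 held 5.55% and 5.17%. In kallisto, Snhg14-206 led with 25.9% of TPM in replicate 2 and 26.3% in replicate 1, followed by Snhg14-203 (22.7% and 20.1%). Snhg14-207 (18.1% and 17.4%) and Snhg14-210 (15.3% and 19.2%) came next, in an order that differed between the libraries. Snhg14-202 also passed 5% there, with 5.65% and 5.28%. Snhg14-208, the second by TPM in RSEM, held only 0.626% and 0.647% in kallisto. The shares were close between libraries within a table and far apart between tables.

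Kallisto also found more Snhg14 in total, 21732 counts in replicate 2 and 26197 in replicate 1, against 14276 and 16433 in RSEM. The quotient was 1.52 in replicate 2 and 1.59 in replicate 1, against a median over genes of 1.06 and 1.07. Only 113 of 12719 genes were over 1.5-fold higher in kallisto in both libraries. Much of the difference was in Snhg14-206, with 9247 kallisto counts in replicate 2 and 10989.5 in replicate 1, against 1869.9 and 1999 in RSEM.

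Snhg14 is best known as the host of repeated C/D box small nucleolar RNAs, among them the Snord116 family, whose loss is central to Prader-Willi syndrome. The annotation places 208 snoRNA genes inside Snhg14, 17 of them named Snord116 at 71.0 to 114 kb from the annotated start of the host. They are 69 to 94 bases long. RSEM gave all 208 an effective length of 0, and all were listed at 0 counts in both tables and libraries. Their values are therefore no measure of these RNAs, and no 3 highest can be named.

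Between the libraries, Snhg14 stood apart from the protein-coding members of the cluster, but not from all genes of the region. Ratios that follow are replicate 2 over replicate 1 on the log2 scale, after scaling by TMM in edgeR, and have no test, since there was 1 library on each side. Snhg14 had a ratio of -0.39, against 0.15 for Snrpn, 0.11 for Snurf and 0.04 for Ube3a. Ndn was at 0.28, Magel2 at 0.24, Mkrn3 at 0.11 and Peg12 at -0.11. Several other non-coding genes of the region, described below, had ratios as low or lower, such as A330076H08Rik at -0.66. B230209E15Rik, at 0.11, did not. Flanking coding genes with a mean of at least 100 counts ran from -0.41 (Atp10a) to 0.09 (Nipa1). The median over 12719 genes was 0.04. Of those 5 members, 0 were over 2-fold lower in replicate 2, as were 0.645% of all genes, and 0 were over 2-fold higher, as were 0.134%. Scaling to the spike-ins moved the median of all genes to -0.17 and the ratios of Snrpn, Snurf, Ube3a and Mkrn3 below 0, so the signs near 0 depend on the scaling. It also changed the split of genes over 2-fold apart to 141 lower and 12 higher, against 82 and 17 with TMM. The ratio of Snhg14 stayed between -0.38 and -0.60 under every scaling run and in kallisto.

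The ratio of Snhg14 was not the same along the gene. Its transcripts whose middle lies in the first 150 kb had 3832 expected counts in replicate 2 and 3990 in replicate 1. Their log2 ratio was -0.25. Those between 150 and 450 kb had 7332 and 7839 counts, a ratio of -0.29. Those beyond 450 kb, towards Ube3a, had 3112 and 4604 counts, a ratio of -0.75. In kallisto the 3 ratios were -0.24, -0.38 and -0.72. The deficit of replicate 2 was thus deeper at the far end in both tables.

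Single transcripts showed the same order. Snhg14-209, the nearest to the start, had 749 counts in replicate 2 and 730.4 in replicate 1 (ratio -0.15). Snhg14-211 had 3071 and 3248 (-0.27). At the far end, Snhg14-208 had 1155 and 1614 (-0.67), Snhg14-210 had 1571 and 2325 (-0.75) and Snhg14-213 had 316 and 543 (-0.97). Kallisto gave Snhg14-208 only 35.3 counts in replicate 2 and 42.2 in replicate 1, a ratio of -0.39. It gave Snhg14-210 a ratio of -0.69 and Snhg14-213 one of -0.92. Over the 10 transcripts with a mean of at least 100 RSEM counts, distance and ratio had a Spearman rho of -0.88 and a Pearson r of -0.84. Over the 10 with a mean of at least 100 kallisto counts, the kallisto values were -0.79 and -0.92. The kallisto set lacks Snhg14-208 and includes Snhg14-212, at 659 kb with a kallisto ratio of -0.90. These points share 2 libraries and in part the same exons, so they are a description of this pair of libraries. Snhg14-214, at 303 kb, departed from its neighbours with a ratio of -0.89 in RSEM and -0.51 in kallisto.

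The strand opposite Ube3a showed low ratios as well. Of 4 genes annotated there as TEC, a class for transcribed regions that await experimental evidence, all 4 were lower in replicate 2. 9330162G02Rik had 1507 counts in replicate 2 and 2237 in replicate 1 (ratio -0.76), and Gm44560 had 250 and 419 (-0.93). Gm44562 had 69 and 113 (-0.90), and Gm44559 had 68 and 122 (-1.03). Transcripts at the far end of Snhg14, whose annotated model stops within Ube3a, had ratios of -0.67 to -0.97, so that Gm44559 lay below them. TEC genes on the Snhg14 strand inside its span were also low and did not follow the distance. A230103L15Rik, at 647 kb, had 191 counts in replicate 2 and 375 in replicate 1 (ratio -1.16), and Gm44831, at 347 kb, had 76 and 156 (-1.22). The 5 nuclear-retained long RNAs listed as markers (Malat1, Neat1, Meg3, Rian and Mirg) were also lower in replicate 2, with a summed level of 5149 TPM, against 8071 TPM in replicate 1, and ratios of -0.70 to -0.19. Over the whole table, 174 TEC genes with a mean of at least 100 counts had a median ratio of -0.90. Gm44562 and Gm44559 fell below that minimum. At the same minimum, 87 processed-transcript genes, the class of Snhg14, had a median of -0.15, and 138 lincRNA genes also -0.15. Antisense transcripts, the class of most Snhg14 transcripts, had a median of -0.11 (546 with a mean count of at least 10). The part of these differences in the Snhg14 ratio was not tested.

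**Figure D4:**
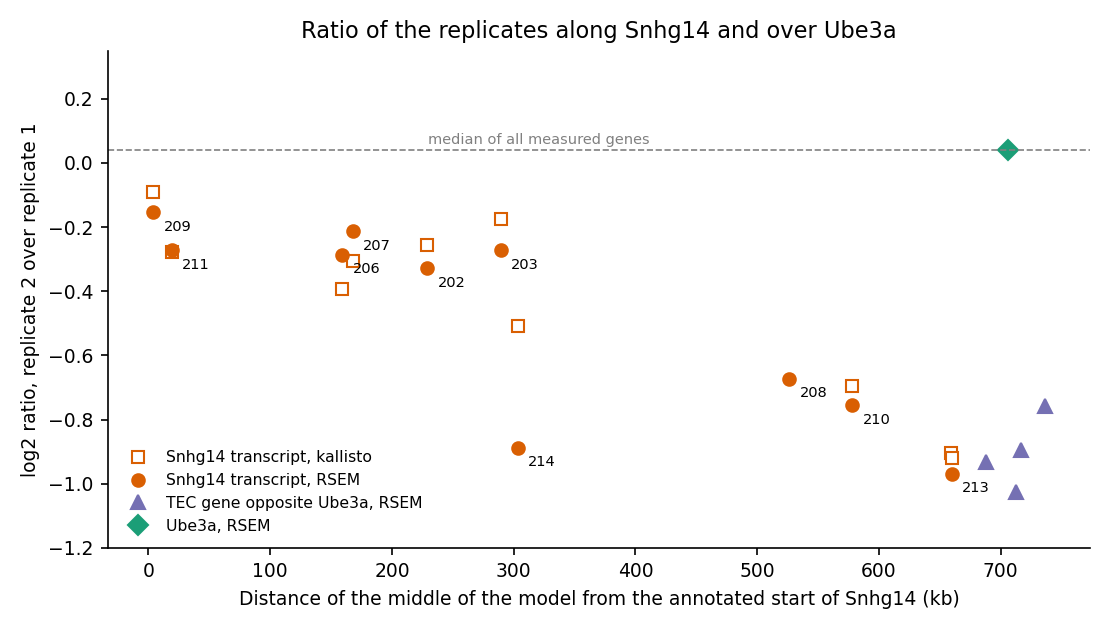
Log2 ratio of replicate 2 over replicate 1 against the distance (kb) of the middle of each model from the GENCODE start of Snhg14, for transcripts with a mean of at least 100 counts in RSEM (filled circles, numbered) or kallisto (open squares), for 4 TEC genes opposite Ube3a (triangles) and for Ube3a (diamond). Transcripts up to 300 kb lie between -0.15 and -0.33 in RSEM, those beyond 450 kb and the TEC genes between -0.67 and -1.03, and Ube3a lies on the dashed median of all genes.

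Set against Ube3a, the antisense gene was the more abundant on every scale run, by a factor that depended on the scale. Snhg14 over Ube3a was 9.63 in replicate 2 and 13.2 in replicate 1 by TPM. It was 2.08 and 2.81 by expected counts, and 1.65 and 2.22 per kilobase of summed exons. In kallisto TPM it was 9.44 and 14.3. On each scale the quotient was lower in replicate 2, and Snhg14 was the gene that differed more between the libraries. Exons of Ube3a overlap those of Snhg14 over 1803 bases, those of 9330162G02Rik over 1796 and those of Gm44560 over 2025. The spike-in mix is named for stranded libraries, but the strand setting of the counting is not given in the sources used here. If strand was not used, reads from these stretches could not be assigned to a gene by strand.

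Ube3a has 18 annotated transcripts. Ube3a-203, the longest with 9856 bases, encodes a protein of 870 amino acids and took 77.4% of the gene's expected counts in replicate 2 and 78.0% in replicate 1. By TPM its share was 37.6% in replicate 2 and 38.7% in replicate 1. Ube3a-201, which encodes 849 amino acids, took 14.8% of TPM in replicate 2 and 13.4% in replicate 1. Together these long reading frames held most of the counts. Shorter models took much of the TPM on few reads. Ube3a-209 (616 bases, 15 amino acids) held 23.5% of TPM in replicate 2 and 24.2% in replicate 1 on 176 and 151 counts. Ube3a-211 (579 bases, 191 amino acids) held 15.8% and 11.01% on 109.9 and 63.8 counts. In kallisto, Ube3a-211 held 36.2% and 31.2% of TPM and Ube3a-209 only 1.82% and 1.95%, while Ube3a-203 held 31.6% and 34.7% and Ube3a-201 held 19.2% and 19.9%. The shares of the short models were therefore not stable between tables.

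Transcripts of Ube3a annotated as retained introns were lower in replicate 2, while its coding forms lay near the median of all genes. The 4 retained-intron transcripts summed to 91.8 counts in replicate 2 and 178 in replicate 1, and their log2 ratio was -1.14. The 11 protein-coding transcripts summed to 6759.9 and 5656 counts, a ratio of 0.07, or -0.14 with spike-in scaling. In kallisto the ratios were -1.15 and 0.11. Over the whole table, 12361 retained-intron transcripts with a mean count of at least 10 had a median ratio of -0.53, and 29288 protein-coding transcripts a median of 0.05. The direction in Ube3a was that of its transcript classes.

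**Figure D5:**
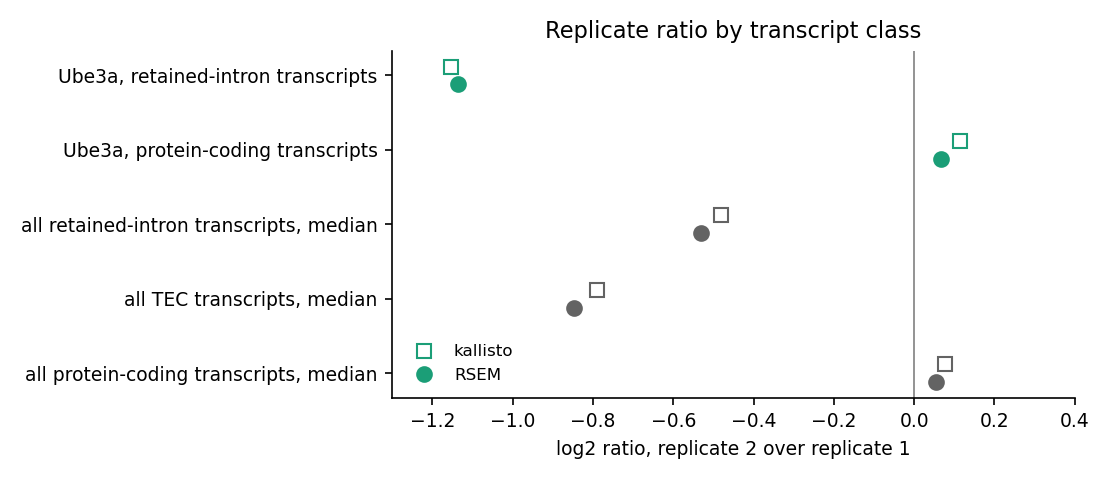
Log2 ratio of replicate 2 over replicate 1 for the summed transcripts of Ube3a by class (green) and the median over all transcripts of a class (grey), in kallisto (open squares) and RSEM (filled circles). Retained-intron transcripts lie at -1.14 in Ube3a and -0.53 over the table in RSEM, and protein-coding ones at 0.07 and 0.05.

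RNA was found for the listed genes whose proteins are known to work with UBE3A. All 8 listed genes of its partner E2 enzymes and the HERC2 complex reached 1 TPM. Their median was 54.0 TPM, against 12.5 TPM over all genes at 1 TPM or more. They ranged from Ube2d3 (100.4 ± 3.82 TPM), an E2 enzyme that hands ubiquitin to many ligases, and Ube2l3 (64.1 ± 1.17), the classical E2 of UBE3A, to Ube2l6 (1.96 ± 0.396), better known as an enzyme for the ubiquitin-like ISG15. All 8 listed genes named in the literature as UBE3A substrates also reached 1 TPM, with a median of 34.3 TPM. The synaptic gene Arc stood at 48.1 ± 6.55 TPM and the potassium channel gene Kcnn2 at 46.5 ± 2.62. The guanine nucleotide exchange factor gene Arhgef15 was the lowest, at 3.50 ± 0.785. Whether all of these are direct substrates is debated.

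Snrpn stood far above the gene for which it is known to substitute in neurons. Snrpb, the widely expressed paralog that encodes SmB, had 42.3 TPM in replicate 2 and 43.0 TPM in replicate 1. Snrpn over Snrpb was 9.26 in replicate 2 and 8.44 in replicate 1 by TPM, and 8.38 and 7.18 in kallisto. Both Snrpn values lay above both Snrpb values. The other genes of the Sm ring, which binds spliceosomal RNAs, all reached 1 TPM. They ranged from Snrpd2 (33.3 ± 3.46) and Snrpd3 (32.8 ± 0.481) to Snrpf (5.50 ± 0.212). All 7 Sm genes had a median of 30.8 TPM. All 9 genes of the SMN complex, which loads the Sm ring, reached 1 TPM with a median of 5.16 TPM. Strap (51.6 ± 1.87), Gemin7 (16.9 ± 1.09) and Smn1 (15.1 ± 0.240) led it, and Gemin6 (2.06 ± 0.0354) was lowest. Of 5 proteins of the U1 and U2 particles, Snrnp70 (166 ± 32.2) was the highest and Snrpa1 (14.8 ± 1.27) the lowest.

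In the second block, Ndn was the 1 abundant gene. Ndn over Magel2 was 86.5 in replicate 2 and 84.0 in replicate 1 by TPM, although the genes lie close together on the same strand. The MAGE paralog Maged1 was higher than either, at 226 TPM in replicate 2 and 207 TPM in replicate 1. Ndn over Maged1 was 0.268 in replicate 2 and 0.248 in replicate 1, and Magel2 over Maged1 was 0.00310 and 0.00295. Maged2 stood at 20.0 ± 1.29 TPM and Nsmce3, a MAGE gene that flanks the cluster, at 8.03 ± 0.304. Of 9 genes whose products are known to bind necdin, 7 reached 1 TPM, with a median of 12.3 TPM. Maged1, the neurotrophin receptor gene Ntrk2 (142 ± 2.03) and Bbs4 (15.9 ± 0.856) led.

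The partners of Magel2 were expressed where Magel2 itself was scarce. All 10 listed genes of the MAGEL2-TRIM27-USP7 ligase, the WASH complex that it regulates and the retromer that recruits it to endosomes reached 10 TPM. Their median was 18.0 TPM. The retromer genes Vps29 (88.5 ± 1.22) and Vps35 (55.9 ± 2.29) and the deubiquitinase gene Usp7 (61.7 ± 6.96) led, and Washc4 (10.4 ± 0.297) was lowest. Trim27, the ligase itself, had 16.4 TPM in replicate 2 and 16.1 TPM in replicate 1. Each of these genes was above every value of Magel2.

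Mkrn3 and Peg12 were also low beside their paralogs. Mkrn3 over Mkrn1 was 0.0192 in replicate 2 and 0.0198 in replicate 1 by TPM. Mkrn3 over Mkrn2 was 0.0674 and 0.0683, and 0.147 and 0.148 in kallisto. Mkrn1 had 60.0 TPM in replicate 2 and 55.6 TPM in replicate 1, and Mkrn2 had 17.1 and 16.1. Peg12 over Frat1 was 0.0312 and 0.0357 and over Frat2 0.0469 and 0.0576. Frat1 had 9.93 TPM in replicate 2 and 9.52 in replicate 1, and Frat2 had 6.61 and 5.90. FRAT proteins bind the kinase GSK3 in WNT signalling, and all 6 listed partner genes reached 1 TPM with a median of 49.8 TPM. They ranged from Ctnnb1 (265 ± 10.5), which encodes beta-catenin, to Axin1 (9.87 ± 0.00707), with Gsk3a at 86.7 ± 5.18 and Gsk3b at 66.8 ± 2.46.

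Genes that flank the cluster were mostly expressed. Of 11, 10 reached 1 TPM, with a median of 21.2 TPM. Among them were the GABA receptor gene Gabra5 (87.3 ± 1.17) and Herc2 (60.1 ± 5.96), which encodes a large ubiquitin ligase that binds UBE3A. The pigment gene Oca2 was lowest, at 0.175 ± 0.0212. None of the 10 with a mean of at least 100 counts was over 2-fold apart between the replicates, with ratios from -0.41 to 0.09.

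All 12 listed genes, chosen among those known to set or keep imprints at such clusters, reached 1 TPM, with a median of 27.7 TPM. The corepressor gene Trim28 (107 ± 0.00707), the histone methyltransferase gene Ehmt2 (77.2 ± 4.31) and the zinc-finger gene Zfp445 (67.2 ± 15.4) led, and Setdb2 (2.36 ± 0.0707) was lowest. Of 13 other imprinted genes listed as paternally expressed, all 13 reached 1 TPM, with a median of 24.5 TPM. Nnat (253 ± 35.8), Impact (112 ± 6.68) and Peg3 (77.0 ± 0.523) were the highest and Dlk1 (2.15 ± 1.01) the lowest. All were below Snrpn in RSEM. In kallisto Snrpn had 557 TPM in replicate 2 and 518 TPM in replicate 1, against 593 and 479 TPM for Nnat, so that the order differed between the libraries. Of 12 listed as maternally expressed, 9 reached 1 TPM, with a median of 11.5 TPM. Both lists are by name, and the values do not show which parental copy was expressed in hippocampus. Meg3 (1040.1 ± 307), Gnas (789 ± 74.9) and Rian (465 ± 55.2) were the highest, and Phlda2 was listed at 0. On these lists, only Meg3 and Gnas had a mean RSEM TPM above that of Snhg14, and only these and Rian above that of Snrpn. In kallisto Snhg14 averaged 1036 TPM, above Meg3 (942) and below Gnas (1326).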

How the data were processed

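Total RNA was sequenced from hippocampus in 2 libraries of 1 group. Per the deposited text notes, the tables refer to mm10 and GENCODE release M21, and per the file headers they have the columns of RSEM (gene and transcript) and kallisto (transcript). The aligner, the program versions and the strand setting were not given in the sources used here. The deposited expected count shares out reads that match several features. The deposited TPM divides it by an effective length and scales all rows to a common total.

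Library sizes (30635891 to 35713471 expected counts) left out 96 spike-in rows and 26248 numbered rows, which held 2 to 6 counts. Levels are means ± SD of 2 libraries. Replicate ratios used unrounded expected counts and a prior count of 0.5. Their TMM factors, from edgeR 4.0.16, and the library sizes these multiply came from rounded counts. The script that computes them was checked on simulated counts. No p-values are given. Kallisto transcripts were summed per gene. Positions, exons and the Snurf sequence come from GENCODE M21, start windows from RefSeq (GRCm38.p6), where all 8 genes matched. Snrpn start windows were aligned in pairs with Biopython, with end gaps free. The members and lists were chosen with earlier results of these data known. In lists above 8 genes, the 3 highest and the lowest are named, of members each transcript with at least 5% of its gene, and other genes of the region and the nuclear-retained RNAs after their values were seen. Some genes that this rule selects are counted in their lists but not reported here. One listed paralog matched no symbol. The software was R 4.3.3, DESeq2 1.42.0, numpy 2.4.6, matplotlib 3.10.9, scipy 1.17.1, pandas 2.3.3 and Python 3.11.15. Alternatives were kallisto, other TPM scalings and lengths, DESeq2 size factors, spike-in scaling, other minimums, pseudocounts and priors, and each replicate left out.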

Additional observations from a re-analysis of the deposited data

How the results depend on the processing

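No paired analysis was possible because the labels give 1 group. The median level of the 8 genes, 57.2 TPM, was 42.1 TPM in kallisto, 117 TPM when rescaled over nuclear genes longer than 300 bases (Snurf drops out) and 13.6 counts-per-million per kilobase of summed exons, and 54.6 to 59.9 TPM with a replicate left out. Snurf over Snrpn, 2.75 by TPM, was 0.175 by expected counts and 0 in kallisto, and 2.71 to 2.79 with a replicate left out. Snhg14 over Ube3a, 11.4 by TPM, was 2.45 by expected counts and 9.63 to 13.2 with a replicate left out. The leading RSEM transcript of Snrpn, with 95.3% of TPM, held 0.0271% in kallisto (94.7% to 95.9% with a replicate left out). That of Snhg14, with 51.1%, held 21.4% in kallisto and 28.5% of counts (49.1% to 53.2%). That of Ube3a, with 38.1%, held 33.2% in kallisto and 77.7% of counts (37.6% to 38.7%). Genes over 2-fold apart between the libraries numbered 99, and 936 at a minimum of 10 counts, 6533 with no minimum, 153 with spike-in scaling and 184 in kallisto. With spike-in scaling the median log2 ratio of the members was -0.094 in place of 0.11, with Snrpn at -0.052, Snurf at -0.094, Ube3a at -0.16 and Mkrn3 at -0.094. Peg12 was at 0.12 in kallisto in place of -0.11. The causes of these differences were not tested. Of 22 list medians, 17 lay above that of all genes at 1 TPM or more, against 18 in kallisto. Depth limits Magel2, Mkrn3 and Peg12, each under 100 counts a library.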

Other observations

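Between Snrpn and Ndn the annotation places several long non-coding RNA genes, chosen here after their values were seen. B230209E15Rik was the highest of them, at 18.1 TPM in replicate 2 and 16.9 TPM in replicate 1, with a log2 ratio of 0.11. A330076H08Rik had 5.40 and 8.23 TPM (ratio -0.66), A230057D06Rik had 4.79 and 7.42 (-0.57) and Gm9801 had 141 and 242 counts (-0.97). The last 3 were lower in replicate 2, as Snhg14 was. Inside Snhg14 but on the opposite strand, the TEC gene Gm44829 had 31 counts in replicate 2 and 75 in replicate 1, a ratio of -1.45. Ratios below 0 were thus seen on both strands of the Snhg14 span. Gm38393, the readthrough gene whose span runs from Snurf to the start of Snhg14, had 24.5 TPM in replicate 2 and 29.3 TPM in replicate 1. Its ratio of -0.26 lies between that of Snrpn, 0.15, and that of Snhg14, -0.39. Its transcript Gm38393-203 shares no exonic base with Snrpn-201, so the value is not that of readthrough RNA alone.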
